A study of Homo sapiens with 2 samples.

Results

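The genes of the lysosome were followed in HEL cells, an erythroleukemia line of human origin, after exposure to L1, a derivative of 3,3′-diindolylmethane. The set holds 45 of the 61806 genes in the count table, and its members were chosen by name: hydrolases of the lysosomal lumen with their cofactors (22 genes), lysosomal membrane proteins (5), subunits and accessory proteins of the vacuolar proton pump (V-ATPase, 15), and the MiT transcription factors TFEB, TFE3 and MITF (3). All 45 were found by name in the deposited tables, and each reached 10 counts in 1 library or both. The L1 group was wild-type HEL exposed to 1 µM L1 for 24 h, and the control group was wild-type HEL exposed to 0.5% DMSO. Each group is 1 library of bead-captured mRNA from 1 cell line, so the spread between cultures could not be measured, and values are described without tests or p-values.

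Lysosomes degrade proteins, glycans, lipids and nucleic acids delivered by endocytosis and autophagy. Their hydrolases work in an acidic lumen, which the V-ATPase maintains by coupling ATP hydrolysis in its cytosolic V1 sector to proton transport through its membrane V0 sector. Most soluble hydrolases reach the lysosome through the mannose 6-phosphate receptors, while the heavily glycosylated proteins LAMP1 and LAMP2 line the inner face of the membrane. TFEB, TFE3 and MITF are related basic helix-loop-helix leucine zipper factors that bind E-box motifs in the promoters of many lysosomal genes. Their activity is controlled largely by phosphorylation at the lysosomal surface, which RNA levels do not show. In the erythroid lineage, lysosomes take part in the removal of organelles as red cells mature.

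The promoters of the set carry these E-boxes often. A window of 300 bases, from 250 before to 50 after the transcription start, was read from RefSeq (GRCh38.p14) for the 32 members with an entry. The letters TCACGTGA, the core of the element known as CLEAR, were in the windows of 6 of these members (18.8%) and in 1.04% of the windows of all 27305 genes. The shorter E-box CACGTG, which lies within the longer motif, was in 10 of the 32 (31.2%) and in 7.44% of all windows. Among the 11373 genes kept that have a window, as all these members are, the shares were 1.86% for the longer and 9.91% for the shorter motif. Both motifs read the same on either strand. Windows of 3 members with the longer motif and those of the members with the lowest and the highest ratio of L1 over DMSO, which hold neither motif, are shown 5′ to 3′ with CACGTG and TCACGTGA in capitals.
LAMP1, chr13:113296989-113297288, plus strand: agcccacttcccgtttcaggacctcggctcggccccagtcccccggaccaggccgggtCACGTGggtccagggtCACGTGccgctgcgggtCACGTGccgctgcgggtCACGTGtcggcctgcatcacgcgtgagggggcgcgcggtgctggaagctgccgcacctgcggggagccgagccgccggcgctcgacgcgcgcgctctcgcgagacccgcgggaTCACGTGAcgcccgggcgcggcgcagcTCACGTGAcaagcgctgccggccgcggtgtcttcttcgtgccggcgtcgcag
MCOLN1, chr19:7522374-7522673, plus strand: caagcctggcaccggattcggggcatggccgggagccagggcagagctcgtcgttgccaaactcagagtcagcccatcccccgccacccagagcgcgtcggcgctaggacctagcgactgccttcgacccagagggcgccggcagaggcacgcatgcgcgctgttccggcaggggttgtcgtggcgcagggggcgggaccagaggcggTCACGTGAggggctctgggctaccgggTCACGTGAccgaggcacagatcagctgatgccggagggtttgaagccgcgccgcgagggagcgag
GAA, chr17:80101331-80101630, plus strand: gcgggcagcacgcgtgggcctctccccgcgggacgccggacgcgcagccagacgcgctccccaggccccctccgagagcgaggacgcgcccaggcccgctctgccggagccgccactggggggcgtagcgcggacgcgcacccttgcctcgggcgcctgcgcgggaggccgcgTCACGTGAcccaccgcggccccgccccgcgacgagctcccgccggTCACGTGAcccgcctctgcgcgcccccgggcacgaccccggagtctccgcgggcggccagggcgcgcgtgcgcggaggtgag
SCARB2, chr4:76213775-76214074, minus strand: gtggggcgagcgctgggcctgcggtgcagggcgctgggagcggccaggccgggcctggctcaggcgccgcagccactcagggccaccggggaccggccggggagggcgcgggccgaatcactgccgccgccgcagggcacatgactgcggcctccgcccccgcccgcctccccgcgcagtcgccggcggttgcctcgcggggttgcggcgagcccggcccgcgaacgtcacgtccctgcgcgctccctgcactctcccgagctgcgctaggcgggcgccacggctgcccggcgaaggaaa
ATP6V0A1, chr17:42458628-42458927, plus strand: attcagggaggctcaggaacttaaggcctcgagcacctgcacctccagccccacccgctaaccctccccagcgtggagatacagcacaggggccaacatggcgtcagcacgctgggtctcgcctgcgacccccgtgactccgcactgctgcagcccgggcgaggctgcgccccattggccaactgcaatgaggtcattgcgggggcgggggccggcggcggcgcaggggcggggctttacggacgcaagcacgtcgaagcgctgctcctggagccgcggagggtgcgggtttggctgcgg
LAMP1 held the longer motif at 29 and 2 bases before its start, MCOLN1 at 42 and 15, and GAA at 77 and 32. CTSA, ATP6V1G1 and ATP6V0D1 held it once, at 26, 59 and 60 bases before the start. The window of SCARB2 follows the RefSeq start, which lies inside the longer gene span of GENCODE 29. A match is a description of the letters and not a bound site.

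Total deposited counts were 32556872 for DMSO and 27135647 for L1. They were scaled by edgeR's TMM method, which gave a library ratio of 1.16 for DMSO over L1. For a single gene, the log2 ratio of L1 over DMSO is given from the scaled counts with an exact 95% interval (Clopper-Pearson) that covers counting error only. For lists, a prior count of 2 was added, and a gene was kept where either library held 10 counts or more. Of the 12 erythroid and megakaryocytic markers, all were measured in both libraries, among them GATA1 (FPKM of 131 in DMSO and 139 in L1) and ITGA2B (222 and 226). Of the 8 monocyte and macrophage markers, CD163 and MARCO had 0 counts in both libraries, CD14 had 0 and 5, CSF1R had 36 and 2, and 4 passed the minimum count. The summed FPKM of the 3 with a deposited value (AIF1, LYZ and ITGAM) was 248 in DMSO and 231 in L1, nearly all of it from AIF1 (235 and 220). CSF1R had no deposited FPKM. Of the 6 lymphoid markers, CD3D, CD3E and MS4A1 had 0 counts in both libraries, NKG7 had 5 and 9, and CD79A had 113 and 60 (log2 ratio -0.70, -1.18 to -0.24). The part of these markers in the results was not tested.

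Levels were compared between genes with the deposited FPKM values, which are per length. The most abundant members in the DMSO library were ATP6V1F, PSAP, CD63 and PPT1. ATP6V1F, a small subunit of the V1 sector, had an FPKM of 123 in DMSO and 109 in L1. PSAP, the precursor of the saposins that present sphingolipids to their hydrolases, had an FPKM of 86.6 in DMSO and 114 in L1, and became the first of the 45 in the L1 library. CD63, a tetraspanin of late endosomes and lysosomes, had 72.7 and 97.6. At the low end stood GAA, the acid alpha-glucosidase that degrades glycogen, with an FPKM of 0.198 in DMSO and 0.265 in L1, and TFEB, with 0.431 and 0.537. In both libraries 33 of the 45 members were above the median FPKM of all 13924 genes with a deposited value, which was 5.19 in DMSO and 5.11 in L1. The summed FPKM of the set was 734 in DMSO and 842 in L1.

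The order of the levels depends on the gene length that the authors used. For 8 members the length implied by the FPKM was over 1.5 times the exon length in GENCODE release 29, while the median over members was 0.976 times. The largest gap was at CTSZ, where the implied length was 18.9 kb against 2.04 kb in GENCODE 29, so its FPKM of 1.90 in DMSO would be 17.7 with the shorter length. The ratio between the libraries does not depend on this length.

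**Figure D1:**
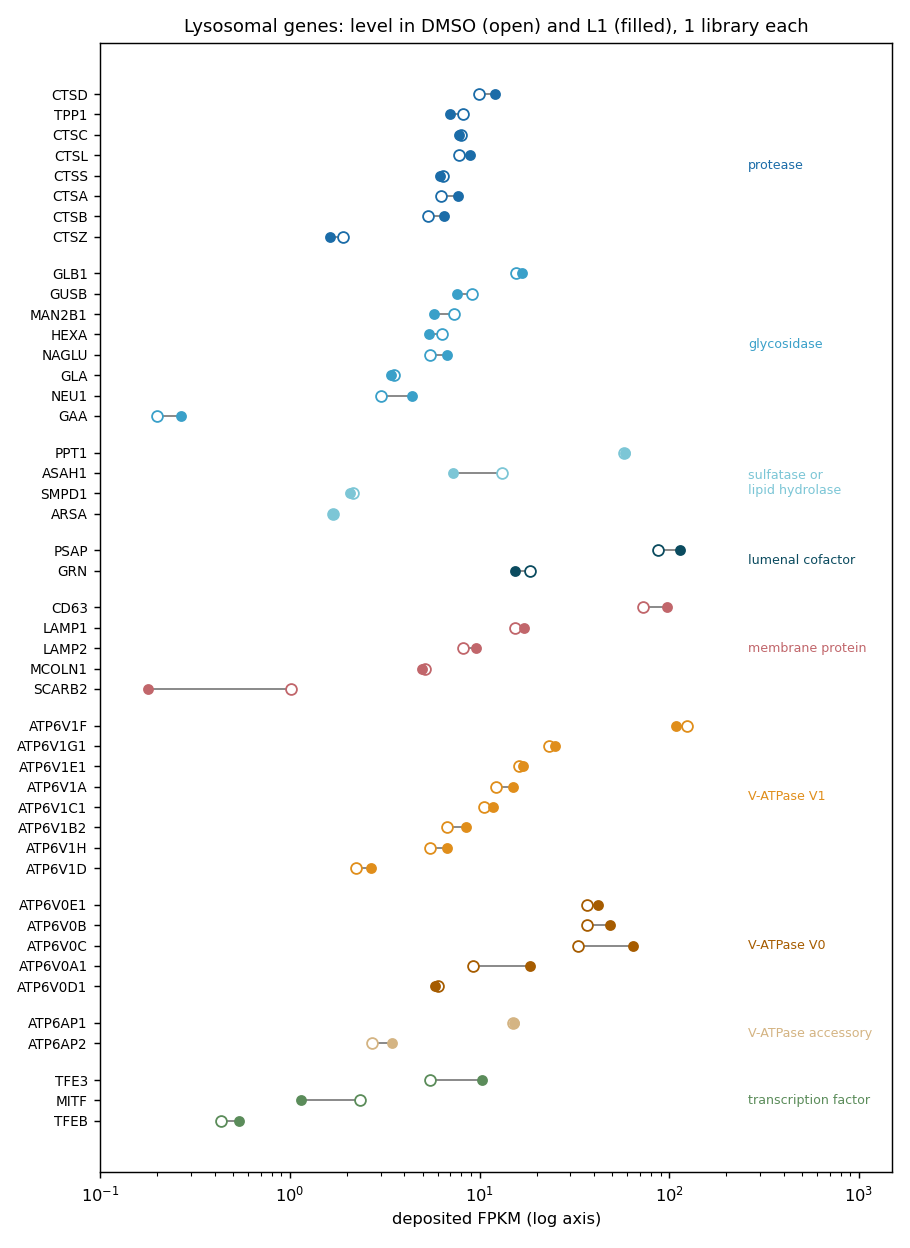
Deposited FPKM of the 45 members on a log axis, with the DMSO library as open circles and the L1 library as filled circles, grouped by class and coloured by class. Most pairs lie close together, while SCARB2 (1.01 to 0.179), ASAH1 (13.1 to 7.20) and MITF (2.34 to 1.14) were lower in L1, and ATP6V0A1 (9.20 to 18.5), ATP6V0C (33.0 to 64.2) and TFE3 (5.47 to 10.3) were higher.

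Most members differed little between the libraries. ATP6V0A1 was the 1 member of 45 to reach 2-fold upward with L1, against 7.12% of all 18123 genes kept. SCARB2 and MITF were at least 2-fold lower, 2 of 45, against 4.83% of all genes. With total counts MITF fell short of 2-fold (-0.997), and with DESeq2 size factors ATP6V0A1 did (0.98). At 1.5-fold, 3 members were higher (ATP6V0A1, ATP6V0C and TFE3; 13.8% of all genes) and 3 were lower (SCARB2, MITF and ASAH1; 11.4% of all genes). These shares are no larger than those of all genes kept, which include many genes with few counts. The 12365 genes with at least 100 counts in the higher library hold 43 of the members. Of these genes 3.13% passed 2-fold upward and 2.92% downward, and 7.38% passed 1.5-fold upward and 8.22% downward. All 3 members on either side at 1.5-fold have this depth. Here the 2 members at least 2-fold lower, of 43, are a larger share than the 2.92%, and the other shares are not larger.

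Small differences were more often toward higher levels with L1. The counting interval lay above 0 under all 4 scalings tried (TMM, upper quartile, DESeq2 size factors and total counts) for 22 members, against 24.3% of all genes, and below 0 for 10 members, against 24.4% of all genes. Among genes with at least 100 counts these shares were 27.1% and 31.1%. In the remaining 13 members the interval held 0 under at least 1 scaling. Among members with at least 1000 counts in the higher library, where narrow intervals are common, 17 of 32 (53.1%) lay above 0 against 29.8% of the 6479 genes of that depth, and 8 of 32 lay below 0 against 35.1%. Of the 45 members, 28 had a log2 ratio above 0, against 49.6% of all genes (46.4% of those with at least 100 counts). The median log2 ratio of the 45 members was 0.16, beside -0.0040 over all genes kept. These figures describe 2 libraries, and whether they exceed the variation between cultures could not be tested.

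**Figure D2:**
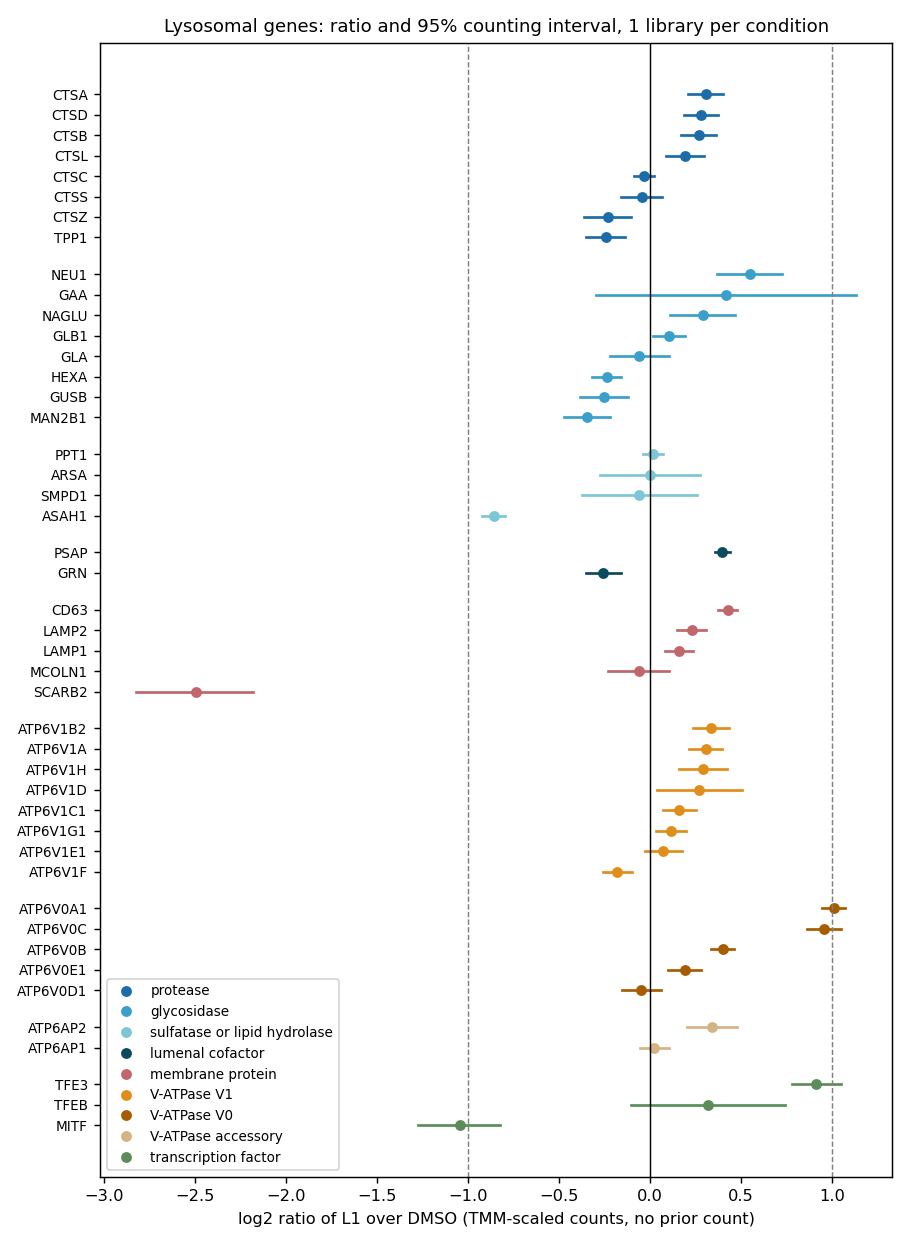
Log2 ratio of L1 over DMSO for each of the 45 members (points, TMM-scaled counts without a prior count) with its exact 95% counting interval (bars), grouped by class; dashed lines mark 2-fold. SCARB2 stands apart at -2.50. Of the 15 V-ATPase genes, 11 have intervals above 0 under all 4 scalings, against 27.1% of all genes with at least 100 counts.

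The hydrolases were split evenly. Of the 20 enzymes, 6 had an interval above 0 and 6 below 0 under all scalings. Among all genes with at least 100 counts in the higher library, these shares were 27.1% and 31.1%. The split was thus near that of all genes at this depth. The median log2 ratio of the 22 hydrolases and cofactors was -0.017. This median was 0.033 with total counts, so its sign depends on the scaling. None of the 22 was at least 2-fold changed.

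Among the 8 proteases, the cathepsins A, B, D and L were slightly higher in the L1 library. CTSA, a serine carboxypeptidase, had 1706 counts with DMSO and 1821 with L1, a log2 ratio of 0.31 (95% interval 0.21 to 0.40). CTSD, the main aspartic protease of the lysosome, had 1788 and 1874 counts, a log2 ratio of 0.28 (0.19 to 0.38). In GENCODE 29, 38.5% of its 31-base words also occur in ENSG00000250644, a gene on the same strand that had 115 counts with DMSO and 17 with L1, and summing the 3 genes of the locus gave a log2 ratio of 0.22. The cysteine proteases CTSB and CTSL had 0.27 and 0.19.

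The other proteases were level or lower. CTSC, the dipeptidyl peptidase that activates granule serine proteases, had the most counts of the class, 6319 in DMSO and 5327 in L1, and a log2 ratio of -0.03 whose interval held 0. CTSS, the cathepsin of antigen-presenting cells, had -0.04, also with an interval that held 0. CTSZ, a carboxypeptidase, went from 1173 to 861 counts, a log2 ratio of -0.23 (-0.36 to -0.10). TPP1, the tripeptidyl peptidase that is deficient in a form of neuronal ceroid lipofuscinosis, went from 1695 to 1236 counts, a log2 ratio of -0.24 (-0.35 to -0.14).

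The glycosidases went both ways as well. NEU1, the lysosomal sialidase (chr6:31857659-31862906 on GRCh38, GENCODE 29), had 463 counts with DMSO and 584 with L1, which was the highest log2 ratio among the hydrolases, 0.55 (0.37 to 0.73). NEU1 works in a complex with cathepsin A and the beta-galactosidase GLB1. For GLB1, 2146 and 1992 counts gave a log2 ratio of 0.11, and its interval (0.02 to 0.19) crossed 0 under at least 1 other scaling. NAGLU, which degrades heparan sulfate, had 512 and 540 counts, a log2 ratio of 0.29 (0.11 to 0.47). The widest interval of the set was that of GAA, with 33 counts with DMSO and 38 with L1, a log2 ratio of 0.42 (-0.29 to 1.13), so a difference was not detectable at this depth.

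Lower in the L1 library were MAN2B1, HEXA and GUSB. MAN2B1, the lysosomal alpha-mannosidase, had 1248 counts with DMSO and 847 with L1, a log2 ratio of -0.35 (-0.47 to -0.22). Summing the 8 genes of its locus gave -0.07. That sum includes RPL10P16 (4108 and 3484 counts) and AC010422.8 (1523 and 1447), whose exons do not overlap MAN2B1, so it does not measure MAN2B1 alone. HEXA, the alpha subunit of beta-hexosaminidase, had 3201 and 2341 counts, a log2 ratio of -0.24 (-0.32 to -0.16). GUSB, the beta-glucuronidase often used as a reference gene in RT-qPCR, had 1124 and 814 counts, a log2 ratio of -0.25 (-0.38 to -0.12). GLA, the alpha-galactosidase that degrades globotriaosylceramide, had -0.06 with an interval that held 0.

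Of ASAH1, SMPD1, ARSA and PPT1, which act on ceramide, sphingomyelin, sulfatide and palmitoylated proteins, ASAH1 was the 1 gene whose interval excluded 0 under all 4 scalings. ASAH1, the acid ceramidase that cleaves ceramide to sphingosine (chr8:18055992-18084998 on GRCh38), counted 6382 reads with DMSO and 3035 with L1. This was the lowest log2 ratio among the hydrolases, -0.86 (-0.92 to -0.80), or 0.551 times the DMSO level. The 6 nearest protein-coding genes with at least 100 counts, 3 on each side, had log2 ratios from -0.47 to 0.34. SMPD1, the acid sphingomyelinase that makes ceramide, had 187 and 155 counts, a log2 ratio of -0.06 (-0.37 to 0.26). ARSA, the sulfatase that acts on sulfatide, had -0.00033 with an interval from -0.28 to 0.27. PPT1, which removes palmitate from proteins, had 6214 and 5425 counts and a log2 ratio of 0.02 (-0.04 to 0.07). Exons of PPT1 overlap those of CAP1 on the opposite strand, which had 24131 and 19907 counts, and the strand setting of the counting is not known.

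The 2 lumenal cofactors moved apart. PSAP (chr10:71816298-71851375) had 8575 counts with DMSO and 9742 with L1, a log2 ratio of 0.40 (0.36 to 0.44). GRN, the progranulin precursor whose granulins act in the lysosome, had 2053 and 1483 counts, a log2 ratio of -0.26 (-0.35 to -0.16). PSAP alone held 11.8% of the summed FPKM of the 45 members in DMSO and 13.5% in L1.

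Of the 5 membrane proteins, 3 were higher in the L1 library, and SCARB2 was far lower. CD63 had 5594 counts with DMSO and 6486 with L1, a log2 ratio of 0.43 (0.37 to 0.48). LAMP2 had 2439 and 2465 counts, a log2 ratio of 0.23 (0.15 to 0.31), and LAMP1 had 2817 and 2711, a log2 ratio of 0.16 (0.08 to 0.23). MCOLN1, the cation channel TRPML1 that releases lysosomal calcium, had 649 and 536 counts and a log2 ratio of -0.06 (-0.23 to 0.10). It was the 1 member whose sign changed, to 0.03, when overlapping genes were summed.

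SCARB2, also called LIMP-2, is an abundant integral protein of the lysosomal membrane in many tissues and lies on chromosome 4 (chr4:76158733-76234536, GRCh38, GENCODE 29). It counted 621 reads with DMSO and 95 with L1, and its deposited FPKM was 1.01 and 0.179. The log2 ratio was -2.50 (-2.82 to -2.18), or 0.177 times the DMSO level, the lowest of the 45 members. No exon of another gene overlaps SCARB2 in GENCODE 29, and it shares 2.75% of its 31-base words with other genes. The 6 nearest protein-coding genes with at least 100 counts had log2 ratios from -0.46 to 0.65, with a median of -0.0047. SCARB2 was among the least abundant members in both libraries, and log2(FPKM + 1) shrank its ratio to -0.77.

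The V-ATPase genes were the class most often higher in the L1 library. The log2 ratio was above 0 in 13 of the 15, and 11 had an interval above 0 under all 4 scalings. Of all genes with at least 100 counts in the higher library, 46.4% had a ratio above 0 and 27.1% such an interval. ATP6V1F was the 1 gene of the 15 with an interval below 0, against 31.1% of all genes at that depth. The median log2 ratio was 0.27, and it stayed between 0.24 and 0.32 over the 4 scalings. The summed counts of the 15 genes were 29369 with DMSO and 31953 with L1, for a log2 ratio of 0.33 (0.31 to 0.36). The largest rises within this sum were those of ATP6V0A1 (3196 to 5549 counts) and ATP6V0C (1487 to 2493).

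In the V1 sector, which hydrolyses ATP, the median over 8 genes was 0.21. ATP6V1A, the catalytic subunit, had 1981 counts with DMSO and 2113 with L1, a log2 ratio of 0.31 (0.22 to 0.40). ATP6V1B2, the B subunit that alternates with it in the catalytic ring, had 1659 and 1806 counts, a log2 ratio of 0.34 (0.24 to 0.43). ATP6V1H, a regulatory subunit, had 0.29 and ATP6V1D, part of the central rotor, had 0.27. Toward the low end, ATP6V1C1 had 0.16, ATP6V1G1 had 0.11 and ATP6V1E1 had 0.07, and the interval of the last held 0. ATP6V1F went from 2983 to 2273 counts, a log2 ratio of -0.18 (-0.26 to -0.10). It was the most abundant subunit by FPKM, so the summed FPKM of the V1 sector was 199 in DMSO and 195 in L1, while 7 of its 8 genes had a log2 ratio above 0.

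In the V0 sector, which conducts protons, the median over 5 genes was 0.40, and the summed FPKM was 122 in DMSO and 179 in L1. Within this sum, ATP6V0C had 33.0 and 64.2, ATP6V0B 36.7 and 48.5, and ATP6V0E1 37.0 and 42.2. ATP6V0A1 had 9.20 and 18.5, and ATP6V0D1 6.02 and 5.82. The largest rise in the sum was thus that of ATP6V0C, whose value is uncertain, as described below. ATP6V0A1, which encodes an a subunit of the proton path (chr17:42458844-42522611), had 3196 counts with DMSO and 5549 with L1. Its log2 ratio of 1.01 (0.95 to 1.07) was the highest of the 45 members, and 0.98 with DESeq2 size factors. ATP6V0B, the c″ subunit of the proteolipid ring, had 3782 and 4305 counts, a log2 ratio of 0.40 (0.34 to 0.46). ATP6V0E1 had 0.19 (0.10 to 0.28). ATP6V0D1, which joins the ring to the V1 rotor, had -0.05 with an interval that held 0. The accessory proteins ATP6AP1 and ATP6AP2 had 0.02 and 0.34, and only the interval of ATP6AP2 was above 0.

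ATP6V0C, the c subunit of the ring (chr16:2513870-2520218), had 1487 counts with DMSO and 2493 with L1, a log2 ratio of 0.96 (0.87 to 1.05), but this value is uncertain. Of its 31-base words in GENCODE 29, 68.3% also occur in transcripts of other genes, and 55.7% occur in ENSG00000260272, which overlaps it on the same strand and had 70 counts with DMSO and 0 with L1. The locus joins 5 genes through chains of overlapping exons, and their summed counts were 3286 and 3569, a log2 ratio of 0.33. This sum includes TBC1D24, with 1200 and 740 counts (log2 ratio -0.48), and AMDHD2, with 529 and 336 (-0.44). Neither has an exon that overlaps ATP6V0C, so the sum does not measure ATP6V0C alone. Downstream, beyond AMDHD2, PDPK1 had 1244 and 287 counts, a log2 ratio of -1.90. All 6 nearest protein-coding genes with at least 100 counts had log2 ratios below 0, the highest at -0.08.

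Several V-ATPase subunits have alternative genes, which were compared after the values were seen. For the a subunit, ATP6V0A1 made up 40.1% of the counts of ATP6V0A1, ATP6V0A2 and TCIRG1 in DMSO (exact 95% interval 39.0 to 41.2) and 61.8% in L1 (60.8 to 62.9). ATP6V0A2, the a subunit of Golgi and endosomal pumps, went from 3315 to 2448 counts, a log2 ratio of -0.22 (-0.30 to -0.15). TCIRG1, the a subunit of osteoclasts and some blood cells, went from 1464 to 975, a log2 ratio of -0.37 (-0.49 to -0.26). By FPKM, the share of ATP6V0A1 was 36.4% in DMSO and 58.9% in L1, and the summed FPKM of the 3 genes was 25.3 and 31.4. For the e subunit, the share of ATP6V0E1 in the counts was 73.9% (72.1 to 75.6) and 81.5% (79.8 to 83.1). For the C subunit, ATP6V1C1 had 86.2% (84.7 to 87.6) and 81.0% (79.4 to 82.6), as ATP6V1C2 went from 314 to 444 counts. The shares of the main gene hardly moved for the E subunit, where ATP6V1E1 had 92.6% in both libraries, and for the G subunit, where ATP6V1G1 had 96.2% and 96.7%.

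**Figure D3:**
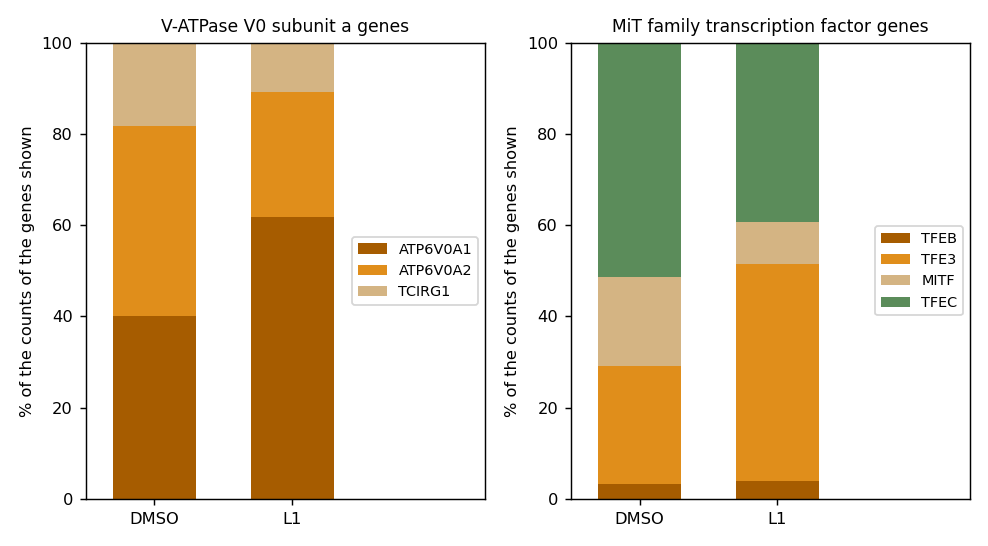
Share of the counts (%) of the V0 subunit a genes (left) and of the MiT family genes (right) in the DMSO and the L1 library, 1 library each and no error bars. ATP6V0A1 made up 40.1% and 61.8% of the subunit a counts, and TFE3 made up 25.9% and 47.5% of the MiT counts. Counts are not corrected for gene length.

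The 3 transcription factors differed from each other. TFE3 (chrX:49028726-49043486) had 731 counts with DMSO and 1188 with L1, a log2 ratio of 0.91 (0.78 to 1.05). MITF (chr3:69739435-69968337), whose many promoters give isoforms in different tissues that gene counts do not separate, had 553 and 231 counts, a log2 ratio of -1.05 (-1.27 to -0.82). TFEB was scarce, with 92 and 99 counts, and the interval of its log2 ratio (0.32) ran from -0.11 to 0.74, so a difference was not detectable at this depth. No exon of another gene overlaps any of the 3 in GENCODE 29. TFEC, the fourth gene of the family and not a member, had 1451 and 983 counts, a log2 ratio of -0.35 (-0.47 to -0.23). Of the counts of all 4 genes, TFE3 made up 25.9% in DMSO (24.3 to 27.5) and 47.5% in L1 (45.5 to 49.5). MITF made up 19.6% (18.1 to 21.1) and 9.24% (8.13 to 10.4), and TFEC 51.3% and 39.3%. By FPKM, which is per length, the shares in DMSO and L1 were 40.4% and 63.9% for TFE3 and 39.1% and 25.7% for TFEC. Those of MITF were 17.3% and 7.04%, and those of TFEB 3.18% and 3.33%. The summed FPKM of the 4 genes was 13.5 in DMSO and 16.1 in L1.

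Side by side, the classes were ordered from the hydrolases and cofactors, with a median log2 ratio of -0.017 over 22 genes, through the membrane proteins, with 0.16 over 5, to the V-ATPase, with 0.27 over 15. Their ranges overlapped widely. The values ran from -0.86 to 0.55 in the hydrolases and cofactors, from -2.47 to 0.43 in the membrane proteins and from -0.18 to 1.01 in the V-ATPase. The 25th and 75th percentiles of all genes kept were -0.28 and 0.30, and the medians of all 3 classes lay between them. Members of a class are not replicates, and the order of the classes was not tested.

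Other lysosomal genes were taken from lists written from general knowledge, with earlier results of these data known. The highest and lowest of each list are named among genes with at least 100 counts in the higher library. The 28 other hydrolases and cofactors with enough counts had a median of 0.0083, with 8 intervals above 0 and 8 below 0 under all scalings. Of all genes kept, 24.3% had an interval above 0 and 24.4% below 0. Among those with at least 100 counts, the shares were 27.1% and 31.1%, so this list was near all genes. PLA2G15, a lysosomal phospholipase, was the highest, with 117 counts with DMSO and 263 with L1, a log2 ratio of 1.38 (1.06 to 1.71), followed by the galactocerebrosidase GALC with 0.68. CTSO (-0.77) and CTSW (-0.64) were the lowest at that depth, and LGMN, with 82 and 43 counts, had -0.72. The 19 other membrane proteins had a median of 0.11, with 7 above 0 and 5 below. TMEM106B, a membrane protein of late endosomes and lysosomes, had 236 and 542 counts, a log2 ratio of 1.41 (1.19 to 1.64), and TPCN1 had 0.44 (CD68, with 64 and 82 counts, had 0.57), while TMEM192 (-0.52) and TMEM175 (-0.44) were the lowest.

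The remaining V-ATPase genes did not share the direction of those in the set. This list holds alternative subunits and assembly factors, and 13 of its genes had enough counts. Their median was -0.10, with 1 interval above 0 and 5 below 0 under all scalings, beside 24.3% and 24.4% of all genes kept. ATP6V1C2 was the highest, with a log2 ratio of 0.71 (0.50 to 0.93), followed by ATP6V1E2 with 0.08. WDR7, a subunit of the rabconnectin complex that helps V1 join V0, was the lowest, with 886 and 392 counts and a log2 ratio of -0.96 (-1.14 to -0.79), followed by ATP6V0E2 with -0.45.

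The 14 genes of lysosomal enzyme sorting had a median of 0.14. Of these, 9 had an interval above 0 and 3 below 0, against 24.3% and 24.4% of all genes kept. The highest were AP3D1 (0.66), a subunit of the adaptor AP-3, and SUMF1 (0.48), which activates sulfatases. The lowest were AP1M1 (-0.54), a subunit of the adaptor AP-1, and GNPTAB (-0.44), the enzyme that starts the mannose 6-phosphate tag. The 14 genes of nutrient signalling at the lysosome and TFEB control had a median of -0.027, with 6 above 0 and 5 below. LAMTOR3 (0.69), a scaffold of the Ragulator complex, and FLCN (0.61), which promotes the phosphorylation of TFEB and TFE3 through the Rag GTPases and had 0.43 with its locus summed, were the highest. RRAGD (-0.73), a Rag GTPase, and TFEC (-0.35) were the lowest.

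**Figure D4:**
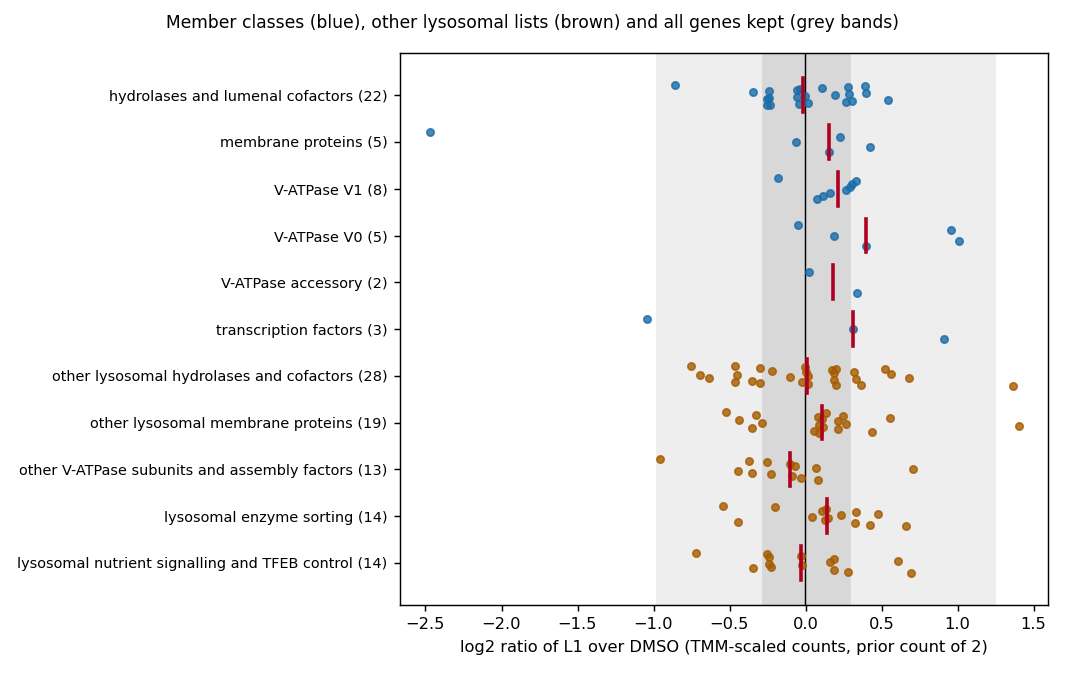
Log2 ratio of L1 over DMSO (TMM-scaled counts, prior count of 2) of each gene in the member classes (blue) and the other lysosomal lists (brown), with the number of genes in parentheses and red bars at the medians. The grey bands hold the middle 50% and 90% of all genes kept, and the medians run from -0.10 in the other V-ATPase genes to 0.40 in the V0 sector.

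The members with the largest differences did not hold the E-box motifs shown above. SCARB2, MITF, ATP6V0A1, ATP6V0C and TFE3 had neither motif in their windows, and ASAH1 had no entry. The 6 members with TCACGTGA had log2 ratios from -0.06 in MCOLN1 to 0.42 in GAA. Of the 10 members with CACGTG, 8 had a log2 ratio above 0, with a median of 0.29, and of the 22 without it 11 did, with a median of -0.0081. For the longer motif the contrast was smaller, with 4 of 6 above 0 and a median of 0.14, against 15 of 26 and a median of 0.05 without it. Over the 11373 genes kept that have a window, the median was -0.013 in the 1127 with CACGTG and -0.011 in the others. The difference between members with and without the motif was not tested, and MITF, TFEB, CD63, ATP6V0C and ATP6V1E1 have further starts that were not searched.

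**Figure D5:**
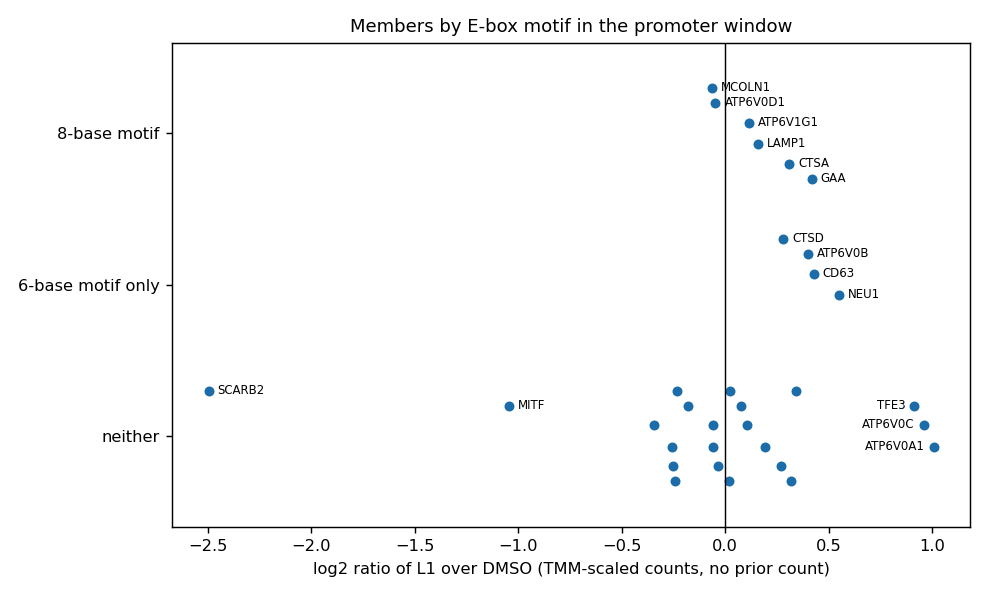
Log2 ratio of L1 over DMSO (no prior count) of the 32 members with a promoter window, by the E-box motif in the window; points are spread vertically for legibility. Members with the 8-base motif lie between -0.06 and 0.42, and the members farthest from 0 hold neither motif.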

How the data were processed

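RNA of HEL cells treated with L1 or DMSO was sequenced as 1 library per condition. Per the labels, the submitters' processing notes name fastp 2.0, HISAT2 2.1.0, StringTie and hg38. The authors deposited raw read counts of 61806 Ensembl genes, without normalization, and FPKM values of 13924 genes, which carry the same library ratio as TMM (1.16). The counting program, annotation and strand setting are not given in the sources used here, so reads over overlapping genes cannot be assigned with certainty.

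Scaling used edgeR 4.0.16 (TMM, upper quartile) and DESeq2 1.42.0 (size factors) in R 4.3.3. Python 3.11.15 with numpy 2.4.6, pandas 2.3.3, scipy 1.17.1 and matplotlib 3.10.9 did the rest. The calls were 2-fold with a prior count of 2, or an exact 95% interval past 0 under 4 scalings. Intervals cover counting error only. Coordinates, overlaps and shared 31-base words were read from GENCODE release 29 on GRCh38, where 58254 gene identifiers matched. A locus joins genes whose exons overlap on the same strand, directly or through other genes. Only the code for the log2 ratio and its interval was tested on simulated libraries, which held counting error and no variation between cultures.

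All 45 members are named. From each other lysosomal list the 2 highest and 2 lowest genes with at least 100 counts in the higher library are named, and genes that overlap a member where the summed locus differs. The a subunit genes and the neighbours of members were added after their values were seen. Some genes are not reported here. The members and lists were chosen with earlier results of these data known. Other scalings, priors, filters, thresholds, FPKM and summed loci were tried as alternatives.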

Additional observations from a re-analysis of the deposited data

How the results depend on the processing

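No paired analysis was possible because the design holds a single library of each kind, and leaving out a replicate was not run for that reason. Medians of 4 groups (all members, hydrolases and cofactors, membrane proteins, V-ATPase) were taken under each scaling, prior count, filter, FPKM and locus alternative. They ran from 0.10 to 0.21 for all members and from 0.19 to 0.32 for the V-ATPase. That of the hydrolases and cofactors changed sign, from -0.017 to 0.033 with total counts. Each median moved by less than the larger arm of the counting interval of the gene nearest to it. This is the counting error of 1 gene and not of a median, so it is a loose limit. For the V-ATPase that gene was ATP6V1D, with an interval of 0.04 to 0.50. Of 270 values of single members under the alternatives, 262 stayed within the member's counting interval, 8 moved out of it, and 0 changed sign where the interval excluded 0.

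The single member at least 2-fold higher became 2 with total counts, 0 with DESeq2 size factors, 0 with log2(FPKM + 1), 0 with overlapping genes summed to loci, 3 at 1.5-fold and 0 at 3-fold. The 2 members at least 2-fold lower became 1 with total counts, where MITF fell short, 0 with log2(FPKM + 1), 1 with log2(FPKM + 0.1) and 1 at 3-fold.

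Over all genes, 1290 higher and 876 lower became 3544 and 1811 with at least 1 count, 694 and 491 when both libraries needed 10 counts, 387 and 361 when the higher needed 100, 199 and 153 with log2(FPKM + 1), 348 and 298 with log2(FPKM + 0.1), 2506 and 2065 at 1.5-fold, and 566 and 345 at 3-fold. Fewer or more genes enter under the filters and FPKM. Depth limited GAA and TFEB.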
